A study of Mus musculus with 3 samples.

Results

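Autophagy genes were described in glomeruli of nondiabetic mice, the filtering units of the kidney. The set holds 40 genes, chosen as named components of the autophagy machinery and its cargo receptors. A probe set counted for a gene where the platform annotation listed that gene's symbol alone, which gave values for 38 of the 40 genes through 88 of 34958 such probe sets. Over the whole array 18194 genes had a value. Bnip3l was read only by 3 probe sets that also list its pseudogene, and Optn by none that list it alone, so neither was analysed here.

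Expression was measured in 3 male FVB/NJ mice aged 8 weeks, all nondiabetic wild-type controls, with 1 Affymetrix array for each mouse. FVB is the inbred background strain of the diabetic OVE26 line that the study set out to compare. OVE26 mice were not analysed here. No genotypes could therefore be compared, and the question is which autophagy genes were measured in control glomeruli and how far they differed between mice. Per the labels' protocols, RNA came from about 1000 isolated glomeruli per mouse, so each value averages podocytes, endothelial cells, mesangial cells and whatever tubule or blood remained. Values are log2 GCRMA expression values, in which a difference of 1 is a 2-fold difference, and errors are SD over the mice (n = 3).

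Autophagy encloses cytoplasm in a double membrane, the autophagosome, and delivers it to the lysosome for degradation. A kinase complex starts the process, a lipid kinase complex marks the membrane, lipid transfer proteins enlarge it, and conjugation enzymes attach proteins of the ATG8 family (LC3 and GABARAP) that bind cargo receptors. Podocytes, which hardly divide, are known for a high basal rate of autophagy. The array measures messenger RNA and not this rate.

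Promoter sequence was examined because 1 member, Tfeb, encodes a transcription factor that binds the E-box letters CACGTG in promoters of autophagy and lysosome genes, and Tfeb differed more between the mice than any other member. RefSeq promoter windows (GRCm38.p6, from 250 bases before to 50 after a gene start) were found for 34 of the 40 genes, with 41 windows in all. The letters CACGTG, which read the same on both strands, were in 5 of the 41 windows (12.2%) and in 7.15% of all 32851 windows. These 5 belong to Atg3, Atg5, Atg7, Atg14 and Bnip3, and the stretches around their E-boxes are shown 5′ to 3′ on the strand of the gene, with the E-box in capitals. They lie at chr16:45158678-45158797 (plus strand), chr10:44268268-44268368 (plus strand), chr6:114670907-114671026 (plus strand), chr14:47568405-47568492 (minus strand) and chr7:138909552-138909671 (minus strand).
Atg14: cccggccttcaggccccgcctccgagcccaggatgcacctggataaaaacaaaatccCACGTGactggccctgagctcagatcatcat
Atg3: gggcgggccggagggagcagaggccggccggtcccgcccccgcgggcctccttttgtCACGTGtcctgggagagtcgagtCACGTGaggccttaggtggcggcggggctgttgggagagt
Atg5: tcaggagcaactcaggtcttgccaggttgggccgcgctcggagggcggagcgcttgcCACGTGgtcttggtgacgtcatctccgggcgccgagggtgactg
Atg7: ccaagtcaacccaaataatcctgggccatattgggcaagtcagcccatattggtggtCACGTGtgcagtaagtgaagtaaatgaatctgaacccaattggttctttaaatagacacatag
Bnip3: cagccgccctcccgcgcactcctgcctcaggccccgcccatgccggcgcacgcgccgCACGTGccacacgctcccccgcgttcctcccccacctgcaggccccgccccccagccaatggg
Atg3 held 2 E-boxes, starting 94 and 71 bases before the start on which its window was set. Those of Atg5, Atg7, Atg14 and Bnip3 started 14, 132, 1 and 108 bases before the starts of their windows. Some genes had several windows, so such a start need not be the outermost start of the gene. The longer letters GTCACGTG, which contain the E-box, were in 3 of the 41 windows (7.32%), those of Atg3, Atg7 and Atg14, and in 2.25% of all windows on either strand. The CLEAR palindrome, the same E-box with both flanks, was in 0 of the 41 windows and in 0.326% of all. The antioxidant response letters TGACNNNGC, searched on both strands, were in 6 of the 41 windows (14.6%, those of Atg13, Map1lc3b and Ulk2 and the 3 windows of Vmp1) and in 12.4% of all. The heat shock element, searched on both strands, was in 0 of the 41 windows and in 0.603% of all. The member windows had a median GC content of 60% and 20 CG pairs, against 52.7% and 7 over all windows. A match describes letters in a window and does not show binding.

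The autophagy machinery was measured nearly completely. Of the 38 genes with a value, 37 (97.4%) were above background in all 3 mice, where 58.3% of all genes were. The probe set with the highest mean stood for a gene. Several probe sets were available for 28 of the 38 members, against 9012 of 18194 genes, and these shares were not matched on that number. Background on each array was set from 80 olfactory and vomeronasal receptor probe sets, as their 95th percentile, at 2.58, 2.91 and 2.86 in mice 1, 2 and 3. The exception was Atg9b, 1 of 2 genes for the transmembrane protein that supplies membrane to the growing autophagosome, at 2.30, 2.25 and 2.13 in mice 1, 2 and 3 and below background in each. In this bulk RNA, fewer cells of a type and less RNA per cell cannot be told apart.

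**Figure D1:**
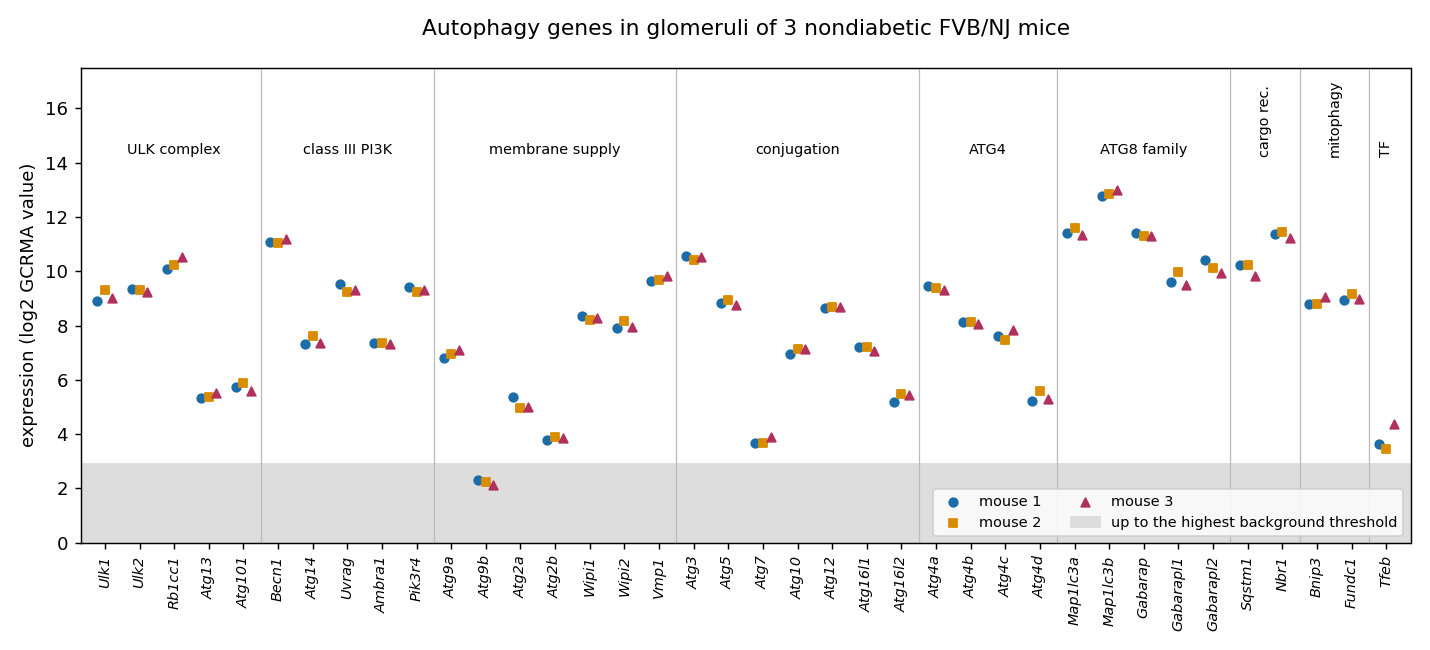
Log2 GCRMA expression value (vertical axis) of the 38 autophagy genes with a value, in the order of their roles, with 1 symbol for each of the 3 mice; the grey band reaches up to the highest background threshold, 2.91. Only Atg9b lies in the band, and the symbols of the mice lie close together for most genes, with Tfeb the widest at 3.46 to 4.38.

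The mice differed little in these genes. None of the 37 members above background had a 2-fold range between the highest and the lowest mouse, against 630 of 10610 genes above background (5.94%). The median range of the members was 0.21, a 1.16-fold difference, against 0.30 over all genes above background, and 36 of 37 ranges were under 0.5, as were 75.2% of those of all genes. The median SD was 0.113 for the members and 0.157 over all genes, and 27 of 37 members lay under that median, where 50% of genes do by construction.

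SD falls with level on these arrays, so genes above background were split by mean level into 3 classes of equal size. In the lowest class, up to 6.45, the 8 members had a median SD of 0.156 against 0.226 for all genes there, and 7 of the 8 lay under it. The middle class, up to 9.01, held 12 members with a median SD of 0.102 against 0.160, and 11 of the 12 lay under it. In the highest class the 17 members had a median SD of 0.111 against 0.114, and 9 of 17 lay under it. The smaller spread of the members was thus present in the lower and middle classes, while in the highest class the medians lay side by side. Of all genes in the lowest, middle and highest class, 11.6%, 4.69% and 1.55% had a 2-fold range. With so few members in each class, their count of 0 such ranges is close to these shares.

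**Figure D2:**
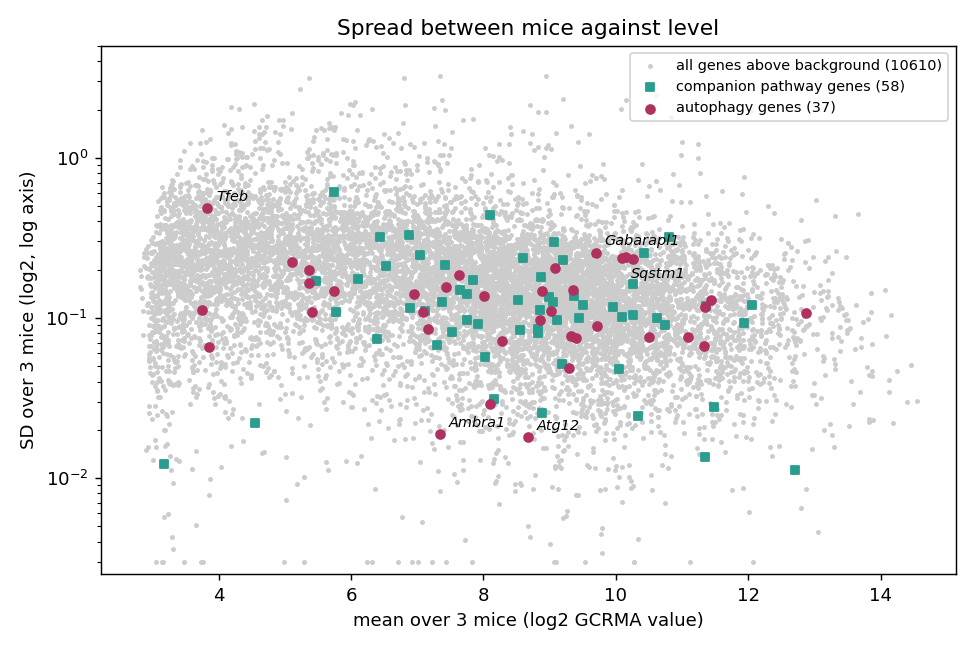
SD over the 3 mice (log2, on a log axis) against mean log2 GCRMA value for all 10610 genes above background (grey), 58 companion pathway genes (squares) and 37 autophagy genes (circles); SDs under 0.003 are drawn at 0.003. Tfeb has the largest SD of the autophagy genes, 0.48, and Atg12 the smallest, 0.02.

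With 1 group of mice, the only test the design allowed was whether a gene varied more between mice than genes of its level do. In limma's fit of the variances, 0 of 10610 genes passed an adjusted p of 0.05 (0%), and so did 0 of the 37 members, whose lowest adjusted p was 0.97. At an unadjusted p under 0.05 there were 493 genes (4.65%) and 0 members. Simulated data for this test were modelled on 15448 probe sets with a mean above 4, not on the 10610 genes. Dimmer members such as Tfeb were thus outside the simulation. In it, 54% of 50 probe sets given 20 times the typical SD were called, 4% at 8 times and 0% at 4 times. The counts of 0 adjusted calls therefore say nothing on differences of the size seen among the members.

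Genes of the ULK complex, which starts autophagosome formation, were all above background. Ulk1, 1 of the 2 kinases, was at 8.90, 9.30 and 9.03 in mice 1, 2 and 3, and Ulk2, the other kinase, at 9.34, 9.30 and 9.24. Rb1cc1, which encodes the scaffold FIP200, was at 10.07, 10.21 and 10.52. Mouse 2 was highest for Ulk1 and mouse 3 for Rb1cc1, with ranges of 0.40 and 0.45, and mouse 1 was lowest for both. The adaptor gene Atg13 was at 5.32, 5.38 and 5.53 and Atg101, whose product stabilises ATG13, at 5.74, 5.89 and 5.59. The other probe set of Rb1cc1 above background had a range of 0.03 and was highest in mouse 1, so the order of the mice for this gene rests on 1 probe set.

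The class III PI3K complex makes the lipid that marks the forming membrane. The 5 members listed for this complex and its regulators had a median SD of 0.08. They do not include Pik3c3, which was placed among the companion genes. Becn1, which encodes the scaffold Beclin 1, was at 11.10 ± 0.08 and Pik3r4, the regulatory subunit VPS15, at 9.33 ± 0.08. Becn1 was highest in mouse 3, but a dimmer probe set of it was lowest there (9.17, 9.06 and 8.88 in mice 1, 2 and 3). Another was highest in mouse 2. Atg14, whose product directs the complex to sites of autophagosome formation, was at 7.32, 7.61 and 7.37 in mice 1, 2 and 3. Uvrag, whose product takes the place of ATG14 in a complex of endosomal traffic, was at 9.52, 9.24 and 9.29. Atg14 was highest in mouse 2 and Uvrag in mouse 1, with ranges of 0.29 and 0.28. Ambra1, a regulator of Beclin 1, had a range of 0.03 around 7.35. Its other probe set above background was dim, at 3.35, 3.67 and 3.26, with a range of 0.41, and the mean over its probe sets had a range of 0.32.

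Genes for membrane supply were above background for 6 of 7 members. Atg9a, which encodes the vesicle protein that seeds the membrane and is the paralog of the undetected Atg9b, was at 6.82, 6.95 and 7.10. The lipid transfer protein genes Atg2a and Atg2b were at 5.36, 4.96 and 4.99 and at 3.78, 3.91 and 3.85 in mice 1, 2 and 3. Atg2a was highest in mouse 1, with a range of 0.40, and Atg2b in mouse 2. The other probe set of Atg2b above background, at 3.74, 3.18 and 3.18, was highest in mouse 1. Whether Atg2b shared the order of Atg2a thus depends on the probe set. Wipi1 and Wipi2, whose products bind the lipid made by the PI3K complex, were at 8.28 ± 0.07 and 8.01 ± 0.14. The level of Wipi1 rests on 1 probe set, as the next highest had a mean of 5.02. Vmp1, an endoplasmic reticulum protein needed for autophagosome formation, was at 9.71 ± 0.09.

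All 7 genes of the conjugation machinery were above background. Atg7, the E1-like enzyme that activates both ATG12 and the ATG8 proteins, was at 3.69, 3.69 and 3.88 in mice 1, 2 and 3. Its values in mice 1 and 2 were identical, which lowers its SD. Atg3, the E2-like enzyme for the ATG8 proteins, was at 10.50 ± 0.08 and Atg10, the one for ATG12, at 7.08 ± 0.11. ATG12 and ATG5 are joined and bind ATG16L1. Atg12 was at 8.67 ± 0.02, Atg5 at 8.86 ± 0.10 and Atg16l1 at 7.16 ± 0.08. Atg12 thus had the smallest SD of the 37 members. Atg16l2, a relative of Atg16l1, was at 5.18, 5.48 and 5.45, lowest in mouse 1.

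The ATG4 proteases trim new ATG8 proteins and release them from membranes again. Their 4 genes were above background, Atg4a at 9.39 ± 0.08 and Atg4b at 8.10 ± 0.03. Atg4c was at 7.61, 7.46 and 7.83 in mice 1, 2 and 3, highest in mouse 3. Its other probe set above background was dim and lowest in mouse 3, at 3.55, 3.57 and 3.14. Atg4d was at 5.22, 5.59 and 5.28, highest in mouse 2. The ranges of Atg4c and Atg4d were both 0.37, and those of Atg4a and Atg4b 0.15 and 0.05. With the mean over probe sets the range was 0.10 for Atg4c and 0.32 for Atg4b.

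The ATG8 family, whose products coat the autophagosome, was above background in full. Map1lc3a and Map1lc3b, which encode LC3A and LC3B, were at 11.42, 11.58 and 11.32 and at 12.77, 12.85 and 12.98 in mice 1, 2 and 3. Gabarap was at 11.41, 11.30 and 11.29, Gabarapl1 at 9.61, 9.98 and 9.49 and Gabarapl2 at 10.41, 10.14 and 9.92. Mouse 3 was lowest for 4 of the 5 genes, where it was lowest for 31.7% of all genes, and it was highest for Map1lc3b. Against the mean of the others, the median difference of mouse 3 was −0.18. With the arrays either centred or quantile-normalised, it was lowest for 3 of the 5 genes. Gabarapl1 and Gabarapl2 had the largest ranges of the family, 0.49 and 0.48, or 1.40-fold and 1.40-fold. The other probe set of Gabarapl1 gave the same order (9.26, 9.61 and 9.24), while that of Gabarapl2 had a range of 0.05. Map1lc3b had a further probe set that was lowest in mouse 3 (11.18, 11.11 and 10.84) and 1 that was highest there (10.28, 10.24 and 10.30). The values of Map1lc3a and Gabarapl1, like those of Becn1, Pik3r4 and Wipi1, come from probe sets of a type (_s_at or _x_at) that can match several transcripts or genes.

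Sqstm1, which encodes the cargo receptor p62, was at 10.24, 10.22 and 9.82 in mice 1, 2 and 3. Nbr1, a receptor that acts together with p62, was at 11.38, 11.44 and 11.21. Both were lowest in mouse 3, Sqstm1 by 0.41 and Nbr1 by 0.20 against the mean of the other mice. All 5 podocyte marker genes above background were also lowest in mouse 3, with a median difference of −0.24, among them Nphs1 (11.36, 11.30 and 10.90), which encodes nephrin. The other glomerular markers did not share this order. Endothelial markers were lowest in mouse 3 for 3 of 6, with a median difference of −0.08. Mesangial markers were lowest in mouse 3 for 1 of 4, with a median difference of 0.07. Proximal tubule markers were highest there, by a median of 2.54. The part of these differences in the values of Sqstm1, Nbr1 and the ATG8 genes was not tested.

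Of the mitophagy receptors, which link mitochondria to the autophagosome, Bnip3 was at 8.80, 8.80 and 9.06 and Fundc1 at 8.94, 9.15 and 8.99 in mice 1, 2 and 3. Bnip3, a gene known to respond to hypoxia, was highest in mouse 3, with a range of 0.26. Fundc1 was highest in mouse 2, with a range of 0.21. Hypoxia-inducible genes, of which 6 of 8 were above background, had a median difference of −0.17 in mouse 3, and 1 of the 6 was highest there. Whether hypoxia bears on the value of Bnip3 was not tested. Among them Vegfa was at 12.02, 11.88 and 11.75 and Slc2a1 at 9.76, 10.08 and 9.47.

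Tfeb, the transcription factor gene for autophagy and lysosomes, was the member that differed most. It was at 3.65, 3.46 and 4.38 in mice 1, 2 and 3, a 1.89-fold range, and mouse 3 exceeded the mean of the other mice by 0.82. Without mouse 3 its range was 0.19. Its single probe set lay only a little above background, and at the 99th percentile of the receptor probe sets it was no longer above background in all mice. In the same mouse 3, proximal tubule markers (median difference 2.54), interferon-inducible genes (1.80) and glucocorticoid-induced genes (0.67) were higher, and whether these differences bear on Tfeb was not tested.

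The 5 genes with an E-box in the printed stretches had these orders. Bnip3 and Atg7 were highest in mouse 3, Atg14 and Atg5 in mouse 2, and Atg3 in mouse 1. Their ranges were 0.14 for Atg3, 0.19 for Atg5, 0.20 for Atg7, 0.26 for Bnip3 and 0.29 for Atg14, against 0.92 for Tfeb. With 3 mice and 1 dim probe set for Tfeb, any link between Tfeb and these genes was not tested.

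**Figure D3:**
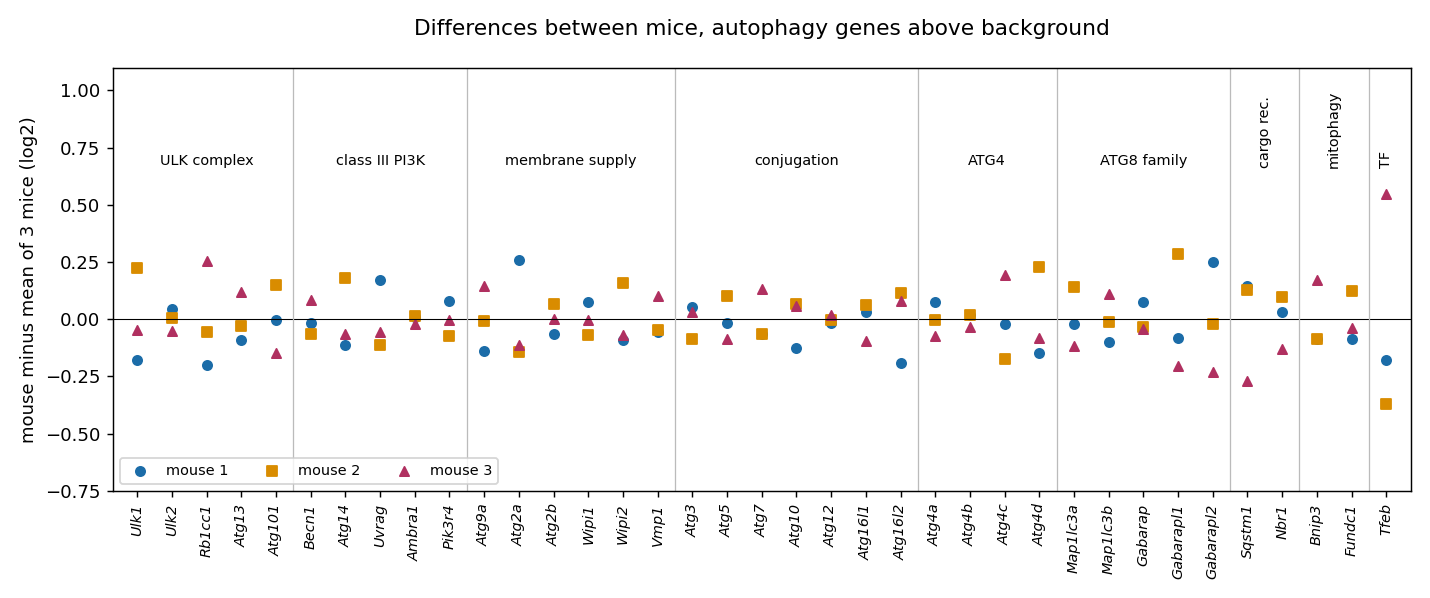
Difference of each mouse from the mean of the 3 mice (log2, vertical axis) for the 37 autophagy genes above background, in the order of their roles, with 1 symbol for each mouse. Only Tfeb spans close to 1, and Sqstm1, Gabarapl1 and Gabarapl2 are lowest in mouse 3.

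Members went in both directions in every mouse. Each mouse was set against the mean of the others, and the median difference was −0.03, 0.00 and −0.05 for mice 1, 2 and 3, against 0.00, −0.02 and 0.01 over all genes above background. Mouse 1 was highest for 10 of 37 members (27%, against 34% of all genes), mouse 2 for 16 (43.2%, against 28.2%) and mouse 3 for 11 (29.7%, against 36.3%). Mouse 1 was lowest for 15 members (40.5%, against 32% of all genes), mouse 2 for 8 (21.6%, against 34.5%) and mouse 3 for 13 (35.1%, against 31.7%). After centring of the arrays the counts of highest were 12, 13 and 12, and after quantile normalisation 10, 17 and 10, so the larger number in mouse 2 depends on the scaling of the arrays.

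Several lists of marker and state genes differed between the 3 isolates. These lists were chosen with earlier results of these data known, so their differences describe these mice and are no independent support. In the variance test 0 of all 10610 genes passed an adjusted p of 0.05, and so did 0 of these. Podocyte (5 of 5 with a value), endothelial (6 of 6) and mesangial (4 of 4) markers were above background in all mice, as the tissue label implies. Proximal tubule markers were above it for 6 of 6, with medians of −2.16, −0.69 and 2.54 in mice 1, 2 and 3. Loop and distal tubule markers (4 of 6 above background) had medians of −1.32, 1.47 and −0.01, and leukocyte markers (5 of 6) had 1.85, −0.28 and −1.83. Heat shock genes had a median difference of −1.35 in mouse 1, where 6 of 7 were lowest, while NRF2 target genes had medians of 0.04, −0.10 and 0.02. Actin 3′ minus 5′ control signals, a sign of RNA quality, were 1.49, 1.81 and 2.05.

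**Figure D4:**
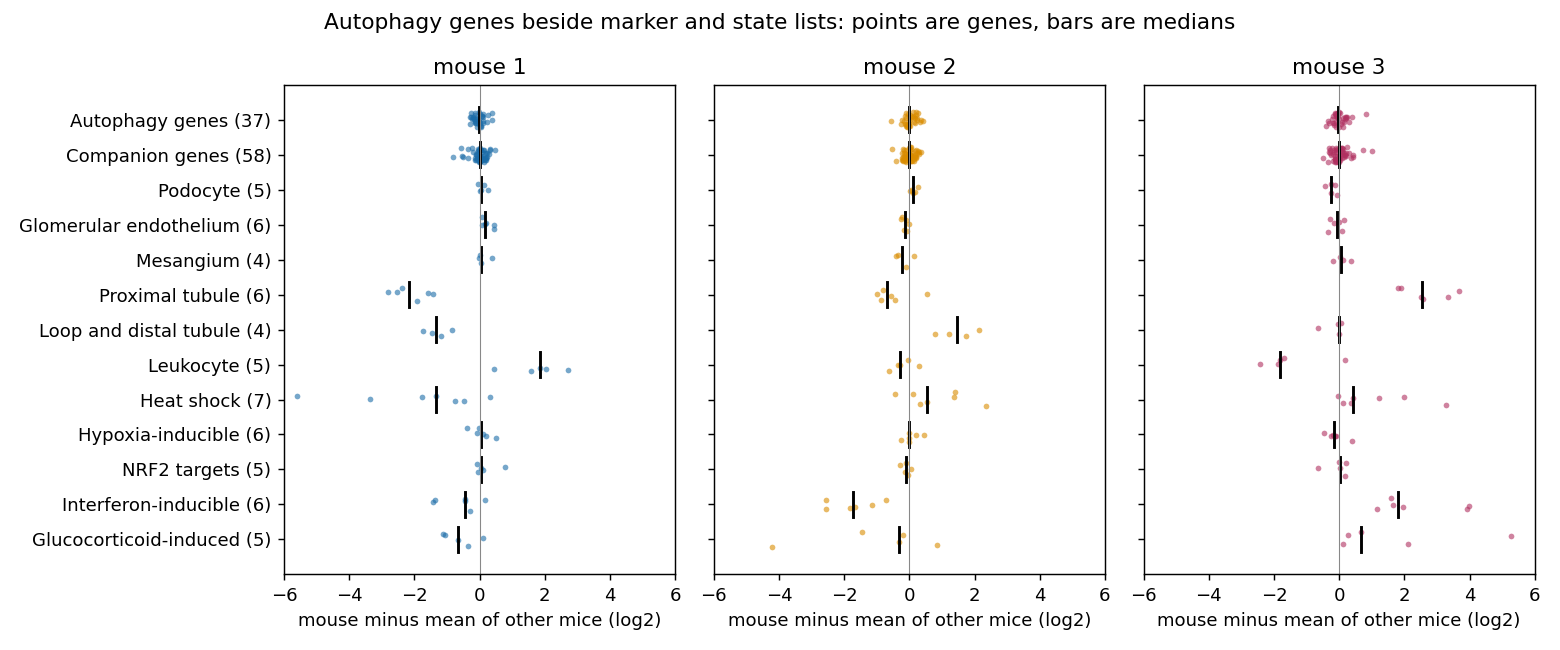
Value in a mouse minus the mean of the others (log2, horizontal axis) for each gene above background in 13 lists, with 1 panel for each mouse; points are genes and black bars are list medians. The largest list median is that of proximal tubule genes in mouse 3, 2.54, and single genes of the marker and state lists lie farther from 0.

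The other genes of the pathway had a similar spread. All 58 companion genes were above background, where 58.3% of all genes were. They cover nutrient sensing, lipid kinase partners, membrane growth, fusion with the lysosome, organelle receptors and regulators. Their median SD was 0.114, against 0.113 for the members and 0.157 over all genes above background. Lamp2, a lysosomal membrane protein gene needed for fusion, was at 12.72, 12.71 and 12.70 in mice 1, 2 and 3, and Mtor, the kinase that restrains the ULK complex, at 8.73, 8.87 and 8.89. In the variance test 0 of the 58 passed an adjusted p of 0.05, as did 0 of all 10610 genes. An unadjusted p under 0.05 was found for 0 of the 58, against 4.65% of all genes. Dapk1, a kinase gene linked to cell death and Beclin 1, alone had a 2-fold range, at 5.20, 5.61 and 6.40 in mice 1, 2 and 3. Its other probe set, which was not above background in all mice, read 2.80, 2.52 and 3.13. No companion had such a range without mouse 1 or without mouse 3, and whether the tubule, interferon and glucocorticoid differences of mouse 3 bear on Dapk1 was not tested. The 9 regulators had a median SD of 0.23, and the 11 genes of nutrient sensing 0.09.

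Several members were read by more than 1 probe set, and these could order the mice differently. Of 88 member probe sets 66 were above background in all mice, and 19 members had at least 2 such probe sets. All of them named the same mouse as highest for 4 of these 19 genes, against 1771 of 4727 genes with at least 2 such probe sets (37.5%). Genes were not matched on their number of probe sets. Besides the probe set that stood for the gene, the one with the highest mean, 29 further probe sets of 19 genes were above background. Mouse 1 was highest for 16 of these 29 (55.2%), against 33.1% of further probe sets over all genes, and 3 were tied between mice. Among dim ones, with a mean under 6, it was highest for 10 of 18, against 30.4% over all genes. The probe sets share target genes and are not independent.

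The widest of them was a probe set of Nbr1, at 5.04, 4.29 and 3.84 in mice 1, 2 and 3. Its range of 1.21 was the only 2-fold range among the 66 member probe sets, where the probe set that stood for Nbr1 had 0.23. A dim probe set of Vmp1 (3.65, 3.12 and 2.95), 1 of Atg5 (6.61, 6.07 and 6.09) and 1 of Atg2b (3.74, 3.18 and 3.18) were also highest in mouse 1. For Wipi1, which had 6 probe sets above background, 5 of the 6 were highest in mouse 1 and the sixth in mouse 3. Mouse 1 also had the lowest 3′ minus 5′ differences for the actin controls and for those of Gapdh (0.48, 1.08 and 0.92 in mice 1, 2 and 3). The labels give an RNA integrity score above 8 for every sample. The part of RNA quality in these probe sets was not tested, and the positions of the probe sets along their transcripts were not used here.

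**Figure D5:**
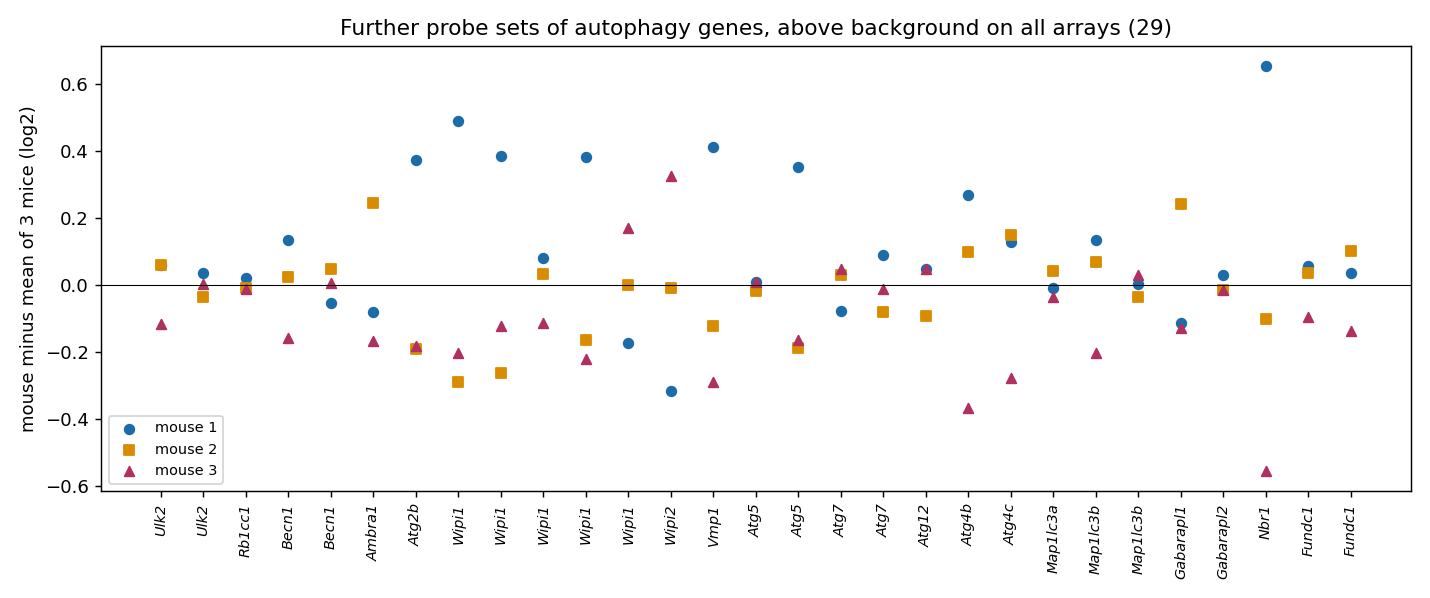
Difference of each mouse from the mean of the 3 mice (log2, vertical axis) for the 29 further probe sets of autophagy genes above background, labelled by gene, with 1 symbol for each mouse. Mouse 1 is highest for 16 of the 29, and a probe set of Nbr1 has the widest range, 1.21.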

How the data were processed

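Glomerular RNA of 3 FVB/NJ mice was hybridised to 1 array each. Per the submitters' processing notes the authors summarised the arrays with GCRMA (version not given in the sources used here). The deposited values were read as log2 values from their range (0.67 to 14.76); the set of arrays normalised together is not stated in these sources. No further normalisation was applied, and 0 columns with values of a sample stayed unused. Gene symbols came from the platform annotation: of 45101, 64 were controls, 34958 had 1 gene symbol, 932 several and 9147 none listed. For a gene with several probe sets the one with the highest mean stood for it. A gene was tested when above background on all arrays. A gene's variance over the mice was tested with limma 3.58.1 (R 4.3.3) against the F distribution that its robust fit with a trend on level gave for all 10610 genes, upper tail, Benjamini-Hochberg over all of them. This test was tried on simulated data. The number of arrays, 3, and the signal over background limit the precision. Differences are a mouse minus the mean of the other mice. A mouse counted as highest only where no other mouse had the identical value. The members and all lists were chosen with earlier results of these data known. All members may be named. Those with a 2-fold range, a call or a value below background, the ATG8 family and the receptors are given mouse by mouse. The same holds for companions with a 2-fold range or a call, by which rule Dapk1 is named. The first 2 genes of a marker or state list could be given so, but only Nphs1, Vegfa and Slc2a1 are. Other companions, single probe sets and further members given mouse by mouse were chosen after their values were seen. Alternatives covered the background threshold, the probe set rule, scaling, the variance fit and each mouse left out.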

Additional observations from a re-analysis of the deposited data

How the results depend on the processing

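Of the 104 recomputed summary values 101 kept their call or stayed close to the reported value. The 104 include the counts of variance calls, which were 0 under every setting and cannot show stability. For single members the variance test made no call under any setting and cannot show stability, and their ranges did move: with the mean over probe sets by over 1.5 times in 15 of 37 members (7 wider, 8 narrower), after quantile normalisation in 5 of 37. Members above background numbered 35 to 37, the loss at the 99th percentile being Atg7 and Tfeb. The median SD of members lay between 0.093 and 0.127, and that of all tested genes between 0.120 and 0.160. With the mean over probe sets it was 0.115 for members and 0.137 for all tested genes, closer together than as reported. No alternative gave a member a 2-fold range. For the ranges most settings could not have done so. Leaving out a mouse cannot widen the range of a probe set, and the background threshold and variance fit do not change it. Only the probe set rule and the scaling could widen a range. The count of companion genes with a 2-fold range, 1 as reported, was 0 with the mean over probe sets, and 0 to 1 when each mouse was left out (0 without mouse 1 or mouse 3); the alternatives average probe sets or use fewer samples. Without probe sets of the _s_at and _x_at types, Pik3r4 had no value and the range of Wipi1 was 0.78 in place of 0.14. With the mean over probe sets, that of Nbr1 was 0.68 in place of 0.23 and that of Ambra1 0.32 in place of 0.03. Without mouse 3 the range of Tfeb was 0.19 in place of 0.92. After the data were seen, the count of further probe sets highest in mouse 1 was recomputed. It was 16 of 29 as reported, 18 after quantile normalisation and 20 after centring. At the 90th and 99th percentile it was 19 of 39 and 12 of 21, and without _s_at and _x_at probe sets 15 of 26. The median differences per mouse changed sign for mice 2 and 3 under some settings and lay between −0.07 and 0.03. Signal over background limits Tfeb, Atg7 and Atg2b most. No paired analysis was possible because there was 1 group of mice.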
